A study of Homo sapiens with 6 samples.

Results

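The IL-6 family cytokines signal through a shared receptor chain, gp130 (gene IL6ST), and 4 genes of this family, IL6, IL11, LIF and CTF1, were described in TGF-β1-treated LX-2 cells given albiflorin. They were the rows named IL6, IL11, LIF and CTF1 among the 937 genes of the deposited table, and they made up 4 of the 10 cytokine genes that were looked for. LX-2 cells are an immortalised line of human hepatic stellate cells, which lay down matrix in a scarring liver. In the ALB group, cells were exposed to TGF-β1 at 20 ng/mL for 24 h, after which albiflorin, a monoterpene glycoside of peony root, was added for another 24 h, and 3 libraries (A1, A2 and A3) were made from them. ALB here is the compound, not the albumin gene. In the TGF-β1 group, 3 libraries (T1, T2 and T3) came from cells that had the same TGF-β1 and no albiflorin. Both groups thus carry the TGF-β1 exposure, and cells without it were not analysed here. The paper's methods do not state what the cells of the TGF-β1 group received in the second 24 h. The albiflorin dose of the sequenced cells is not stated in the sources used here, and neither is whether the libraries of a group came from separate cultures, so a p-value reflects library-to-library spread only, and that spread may be technical.

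A gp130 cytokine first binds its own receptor chain and then draws in gp130, whose JAK kinases phosphorylate the transcription factor STAT3. IL6 encodes the cytokine that drives the acute-phase response of hepatocytes. IL11 encodes a cytokine that fibroblasts and stellate cells make when exposed to TGF-β. LIF (leukaemia inhibitory factor) and CTF1 (cardiotrophin-1) both signal through the LIF receptor chain paired with gp130. The comparison asked how albiflorin altered the transcriptome of TGF-β1-exposed stellate cells, and for these cytokines it showed movement in both directions.

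With albiflorin, IL6 and CTF1 fell and IL11 and LIF rose, and for each gene all 3 ALB libraries lay on one side of all 3 TGF-β1 libraries. Mean FPKM (fragments counted per kilobase of a transcript, relative to the size of the library) in ALB cells was 0.425 times that in TGF-β1 cells for IL6 and 0.408 times for CTF1. It was 2.19 times that in TGF-β1 cells for IL11 and 3.51 times for LIF. In the quasi-likelihood test of edgeR, with Benjamini-Hochberg adjustment over the 937 genes and a threshold of 0.05, 2 of the 4 were called lower and 2 higher. The table holds genes that the authors had already called on the same 6 libraries, at P under 0.01 and more than a 2-fold change. With the library depths estimated here, the smallest fall was -0.88 and the smallest rise 1.11 on the log2 scale. The authors' 2-fold limit thus does not hold exactly on this scale. Of the 937 genes 99.4% passed, 56.9% as lower and 42.5% as higher, so the 4 calls repeat the selection and are no separate evidence. The same selection favours groups that do not overlap. The share of all 937 genes without overlap was not counted, so the separation of the 4 genes is a description. In a bulk RNA sample, fewer cells that make a transcript and less of it per cell cannot be told apart.

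IL6 and IL11 lie on different chromosomes and went opposite ways, and the sequences around their start sites are shown to set the falling and the rising gene side by side. Windows of 250 bases before to 50 after the RefSeq start (GRCh38.p14) were used for these 2 of the 4 genes, and those of LIF and CTF1 were not analysed here. The window of IL6, on the plus strand, is chr7:22726950-22727249, and that of IL11, on the minus strand, is chr19:55370414-55370713. Both are printed 5′ to 3′ on the strand of the gene, with matches to the motifs searched in capitals.

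IL6: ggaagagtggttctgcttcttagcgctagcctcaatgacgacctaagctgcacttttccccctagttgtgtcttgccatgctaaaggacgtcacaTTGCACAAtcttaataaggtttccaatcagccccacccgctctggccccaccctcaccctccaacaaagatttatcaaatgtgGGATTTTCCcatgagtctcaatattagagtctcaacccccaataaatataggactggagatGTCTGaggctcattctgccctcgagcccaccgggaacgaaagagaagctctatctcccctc
IL11: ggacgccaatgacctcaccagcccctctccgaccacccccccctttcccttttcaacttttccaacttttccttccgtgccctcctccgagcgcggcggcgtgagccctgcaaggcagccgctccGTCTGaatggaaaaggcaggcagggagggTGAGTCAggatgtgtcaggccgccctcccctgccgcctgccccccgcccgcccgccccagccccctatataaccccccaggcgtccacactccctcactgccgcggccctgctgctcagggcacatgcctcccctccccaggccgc

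These windows had a GC content of 49.3% for IL6 and 68.7% for IL11. A match in them is a description and not a site, and the absence of a match says only that the letters are not in the window. On both strands, the AP-1 motif TGACTCA was in 4.95% of 35116 RefSeq windows of this length. It was in that of IL11, as TGAGTCA with its first base 96 bases before the start, and had no match in that of IL6. The NF-kB motif GGANTTTCC, held by 1.64% of windows, was in that of IL6 as GGATTTTCC, 72 bases before the start. The C/EBP motif TTGCNNAA, held by 10.5%, was in that of IL6 as TTGCACAA, 155 bases before the start. IL11 had neither. The SMAD element CAGAC, held by 45.3% of windows, was in both as its complement GTCTG, 11 bases before the start in IL6 and 125 in IL11. The motifs TGACGTCA (CRE, 1.85% of windows), TGATGNAA (C/EBP-ATF, 3.62%), GTCTAGAC (SMAD palindrome, 0.202%), GGAATG (TEAD, 14.0%) and the TATA box letters TATAAA (11.5%) were in neither. No 2 of the matches overlapped.

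Among the falling members, IL6 had FPKM values of 51.3 in A1, 50.9 in A2 and 72.5 in A3, against 133 in T1, 173 in T2 and 106 in T3. These rest on 2025, 2009 and 3326 counts in the ALB libraries and 5605, 6834 and 3927 counts in the TGF-β1 libraries, for which the counting error is at most 2.23% of a value. The lowest TGF-β1 library was 1.46 times the highest ALB library, so the groups did not overlap, and A3 stood above the other ALB libraries. The mean was 58.2 ± 12.3 FPKM in ALB cells and 137 ± 33.6 FPKM in TGF-β1 cells (SD, n = 3 each). In edgeR the log2 fold change of IL6 (ALB over TGF-β1) was -1.24 (standard error 0.23, 95% interval -1.77 to -0.71, adjusted p = 0.000919). IL6 spans positions 22725884 to 22732002 of chromosome 7 (GRCh38, GENCODE 29, plus strand). There it shares 1730 bases with STEAP1B and 1737 with AC073072.1, both on the opposite strand. The sources used here do not say whether counting used the strand, so reads of IL6 and of these genes cannot be told apart there. The RefSeq window printed above for IL6 lies within this shared stretch. The GENCODE gene thus begins upstream of the RefSeq start used for the window.

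CTF1, the second falling member, was far less abundant, with FPKM values of 0.874, 0.826 and 0.934 in A1, A2 and A3, against 2.16, 1.80 and 2.50 in T1, T2 and T3. The groups did not overlap, although these levels rest on 52, 49 and 64 counts in the ALB libraries and 135, 105 and 139 counts in the TGF-β1 libraries. Counting error alone is 12.5% to 14.3% of an ALB value and 8.48% to 9.76% of a TGF-β1 value, and the 95% Poisson interval of the lowest count, 49 in A2, ran from 36.3 to 64.8. The ALB libraries varied by less than that, with a coefficient of variation of 6.12%, against 16.3% in the TGF-β1 libraries. CTF1 averaged 0.878 ± 0.0538 FPKM in ALB cells and 2.15 ± 0.352 FPKM in TGF-β1 cells (SD, n = 3 each). Its log2 fold change was -1.28 (standard error 0.26, 95% interval -1.86 to -0.70, adjusted p = 0.00134, edgeR). The CTF1 gene occupies chromosome 16, plus strand, positions 30896607 to 30903560, and no annotated gene overlaps it.

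IL11, the most abundant of the 4, had FPKM values of 829.8 in A1, 556 in A2 and 533 in A3, against 292 in T1, 354 in T2 and 231 in T3. The lowest ALB library was 1.51 times the highest TGF-β1 library. Its counts were 69763, 46679 and 52025 in the ALB libraries and 26064, 29538 and 18222 in the TGF-β1 libraries, with a counting error below 1% of any value (0.379% to 0.741%). By FPKM, IL11 was the gene of rank 2 among the 937 in every ALB library, and of rank 6, 5 and 13 in T1, T2 and T3. It averaged 639.7 ± 165 FPKM in ALB cells and 292 ± 61.4 FPKM in TGF-β1 cells (SD, n = 3 each). The log2 fold change of IL11 was 1.13 (standard error 0.23, 95% interval 0.61 to 1.65, adjusted p = 0.00139, edgeR). This was close to the smallest rise in the table, 1.11, and stood at place 372 of the 400 higher genes by size. The IL11 gene occupies chromosome 19, minus strand, positions 55364389 to 55370463, with no annotated gene overlapping it.

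LIF had the largest fold change of the 4. It had FPKM values of 98.7, 80.8 and 52.5 in A1, A2 and A3, against 22.7, 21.4 and 22.0 in T1, T2 and T3. The TGF-β1 libraries were nearly level, with a coefficient of variation of 3.07%, whereas the ALB libraries spread 1.88-fold (coefficient of variation 30.1%). Even so the lowest ALB library was 2.31 times the highest TGF-β1 library, the widest gap between groups among the 4. Counts were 13610, 11115 and 8396 in the ALB libraries and 3314, 2925 and 2852 in the TGF-β1 libraries. LIF averaged 77.3 ± 23.3 FPKM in ALB cells and 22.0 ± 0.675 FPKM in TGF-β1 cells (SD, n = 3 each). Its log2 fold change was 1.82 (standard error 0.23, 95% interval 1.29 to 2.34, adjusted p = 0.000137, edgeR). It stood at place 82 of the 400 higher genes by size. IL6 and CTF1 stood at places 327 and 309 of the 537 lower genes, so their falls were smaller than the median fall of the table, -1.39 on the log2 scale, while the rise of LIF was above the median rise, 1.39. The LIF gene, on chromosome 22, minus strand, positions 30240447 to 30246851, shares 92 bases with LIF-AS1 and 647 with AC004264.1 on the opposite strand, with the same limit on strand as for IL6. OSM, the gene of oncostatin M, another gp130 cytokine, lies 15978 bases from LIF and is not among the 937 genes.

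**Figure D1:**
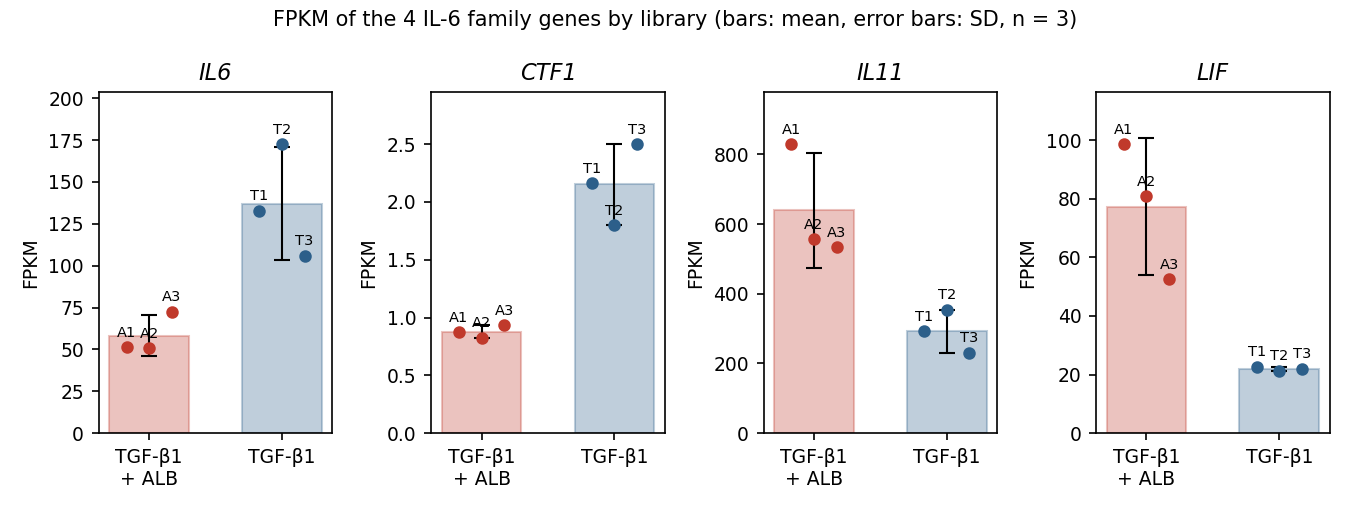
FPKM (y axis, a scale for each gene) of IL6, CTF1, IL11 and LIF in the 3 libraries of cells with TGF-β1 and albiflorin (left, red) and the 3 with TGF-β1 only (right, blue), as points named by library. Bars are means and error bars SD. IL6 and CTF1 are lower in all 3 ALB libraries and IL11 and LIF are higher, and LIF is nearly level among the TGF-β1 libraries, at 21.4 to 22.7 FPKM.

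**Figure D2:**
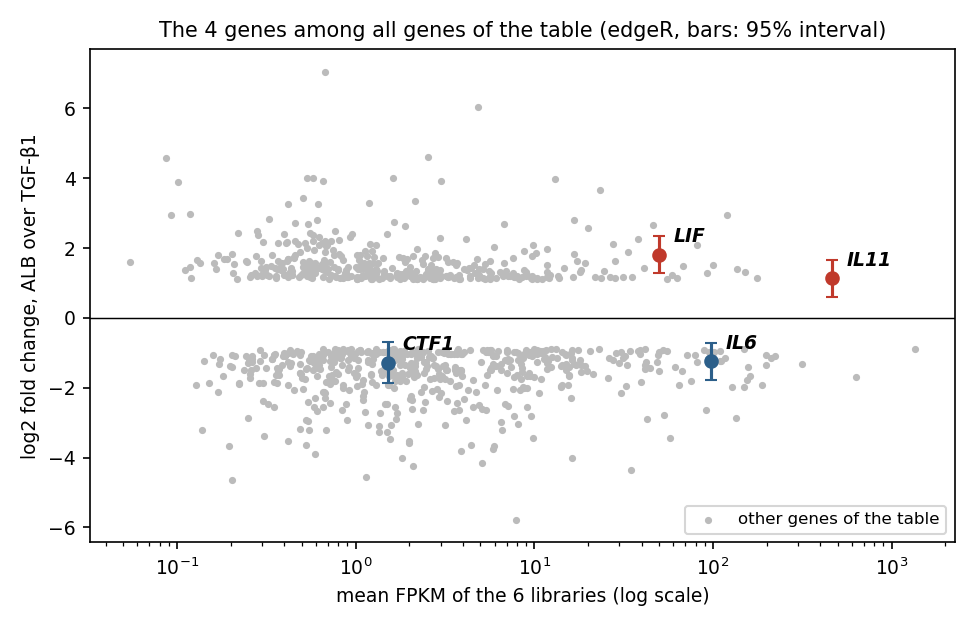
Mean FPKM of the 6 libraries (x axis, log scale) against the log2 fold change of ALB over TGF-β1 (y axis) for the 937 genes of the table in grey, with the 4 cytokine genes in colour and their 95% intervals from edgeR. The empty band around 0 is where the authors' selection left no gene. IL11 lies at the inner edge of the higher genes, at 1.13, and LIF further out, at 1.82.

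A single order of abundance held in the TGF-β1 libraries and in A3, and part of it changed in A1 and A2. In T1, T2 and T3 the order by FPKM was IL11, IL6, LIF and CTF1. In A1 and A2 LIF stood above IL6, and in A3, with 52.5 FPKM of LIF and 72.5 FPKM of IL6, it stayed below. The FPKM of the 4 genes added up to 981, 689 and 659 in A1, A2 and A3, against 450.2, 549.6 and 361 in T1, T2 and T3, without overlap. IL11 made up 80.8% to 84.6% of this sum in ALB cells and 63.9% to 65.0% in TGF-β1 cells. IL6 made up 5.23% to 11.0% in ALB cells and 29.3% to 31.4% in TGF-β1 cells. The share of LIF was 7.96% to 11.7% in ALB cells and 3.89% to 6.08% in TGF-β1 cells. CTF1 stayed below 1% in all 6 libraries (0.0891% to 0.142% in ALB cells, 0.327% to 0.692% in TGF-β1 cells). IL11 makes up most of the sum, and the selection of the table fixes its rise and the fall of IL6. The sums and shares are therefore a description.

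**Figure D3:**
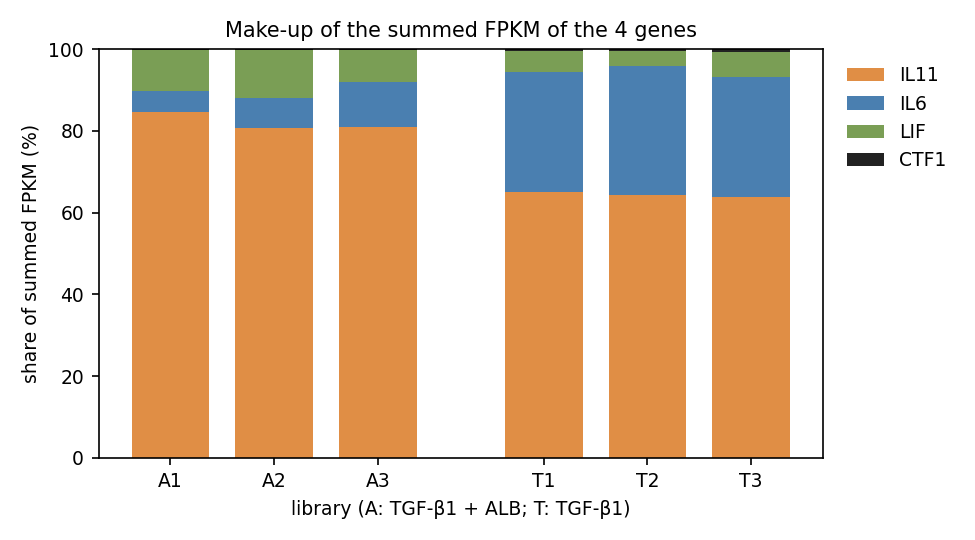
Share of each gene in the summed FPKM of IL11, IL6, LIF and CTF1 (y axis, percent) in each library (x axis), ALB libraries on the left. IL11 takes 80.8% to 84.6% of the ALB bars and 63.9% to 65.0% of the TGF-β1 bars, and CTF1 is too small to see in most bars.

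Ratios between members within a library do not depend on the depth or on any scaling of the libraries. The ratio of IL11 to IL6 by FPKM was 16.2 in A1, 10.9 in A2 and 7.36 in A3, against 2.20 in T1, 2.05 in T2 and 2.18 in T3. It was nearly constant among the TGF-β1 libraries, where both genes were highest in T2 and lowest in T3, and spread 2.20-fold among the ALB libraries, where IL11 was highest in A1 and IL6 in A3. On average it was 5.09 times higher in ALB cells, a difference of 2.35 on the log2 scale (standard error 0.33). The ratio of LIF to IL6 was 1.92, 1.59 and 0.724 in A1, A2 and A3, against 0.171, 0.124 and 0.208 in T1, T2 and T3, a log2 difference of 2.99 (standard error 0.48). Relative to CTF1, IL11 was 949.6, 673 and 571 times as abundant in A1, A2 and A3 and 135, 197 and 92.4 times in T1, T2 and T3 (log2 difference 2.40, standard error 0.38). LIF was 113, 97.8 and 56.2 times as abundant as CTF1 in the ALB libraries, against 10.5, 11.9 and 8.79 times in the TGF-β1 libraries (log2 difference 3.05, standard error 0.33). In these 4 pairs a rising member is set against a falling one, so the selection of the table fixes the direction, and the values are a description.

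The 2 pairs of members that moved the same way had no direction fixed by the selection. IL11, however, stood at place 372 of the 400 higher genes by size, so most higher genes rose more than it did. The ratio of LIF to IL11, the rising pair, was 0.119, 0.145 and 0.0984 in A1, A2 and A3, against 0.0776, 0.0603 and 0.0952 in T1, T2 and T3. The groups did not overlap, but A3 and T3 were close. The log2 difference was 0.64 (standard error 0.25), so the fold change of LIF was 1.56 times that of IL11, with a two-sided exact permutation p = 0.1 (adjusted p = 0.12 over the 6 pairs by Benjamini-Hochberg). This is the smallest p that 3 libraries against 3 allow, so the difference could not pass the threshold. For the falling pair, the ratio of CTF1 to IL6 was 0.0170, 0.0162 and 0.0129 in A1, A2 and A3, against 0.0163, 0.0104 and 0.0236 in T1, T2 and T3. The groups overlapped, with a log2 difference of -0.06 (standard error 0.36) and a two-sided exact permutation p = 0.9 (adjusted p = 0.9). Leaving out each library in turn gave log2 differences between -0.36 and 0.23. A p of this size does not show that IL6 and CTF1 fell alike. The other 4 pairs each had p = 0.1 in the same exact test, an outcome that the selection favours. Their values lower the adjusted p of LIF to IL11, so nothing is read from that adjusted p.

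**Figure D4:**
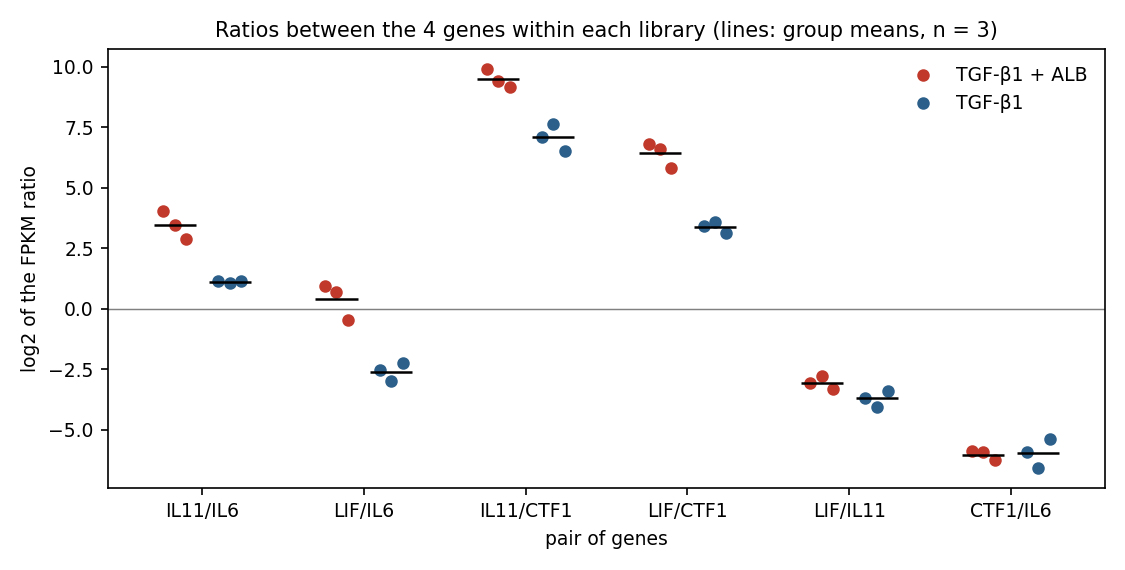
Log2 of the FPKM ratio (y axis) for each pair of the 4 genes (x axis), with a point per library, ALB libraries in red on the left of each pair and TGF-β1 libraries in blue on the right, and lines at group means. The 4 pairs of a rising and a falling gene differ by 2.35 to 3.05 between groups. LIF/IL11 differs by 0.64, and CTF1/IL6 overlaps.

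The scaling of the libraries decided whether the falling members passed. TMM factors, which take most of these called genes as unchanged, moved the table's median log2 fold change to -0.37, against -0.97 at the estimated depths, and 78.0% of its genes passed. IL6 then had a log2 fold change of -0.63 and did not pass (adjusted p = 0.0589, edgeR), and CTF1 had -0.66 and passed (adjusted p = 0.0395, edgeR). With DESeq2's own size factors 72.4% of the genes passed, and neither IL6 (log2 fold change -0.53, adjusted p = 0.079) nor CTF1 (-0.57, adjusted p = 0.0918) did. IL11 and LIF passed under both, with log2 fold changes of 1.73 and 2.40 under TMM and 1.83 and 2.51 under DESeq2's own size factors.

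**Figure D5:**
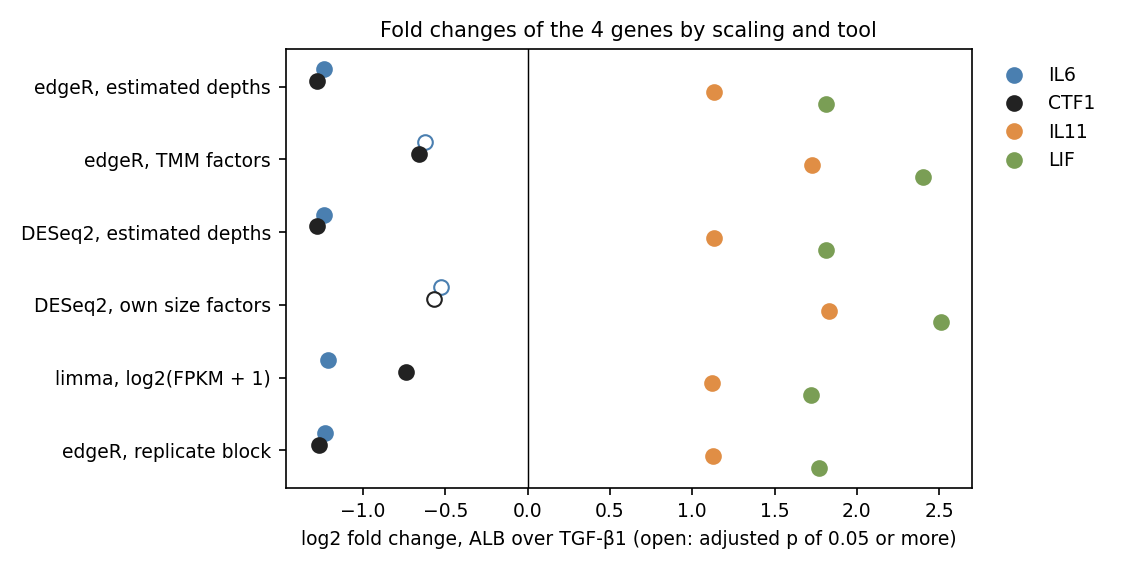
Log2 fold change of ALB over TGF-β1 (x axis) of IL6, CTF1, IL11 and LIF under 6 combinations of tool and scaling (y axis). Filled points passed at an adjusted p under 0.05 and open points did not. The open points are IL6 under TMM factors and IL6 and CTF1 under DESeq2's own size factors.

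The receptors and signal transducers of the family were not among the 937 genes. Of 9 receptor genes looked for, among them IL6ST, IL6R, IL11RA, LIFR and OSMR, and of 16 JAK-STAT transducers and inhibitors, among them JAK1, STAT3 and SOCS3, 0 were in the table. Their absence from a list of called genes does not tell whether they moved. Of 30 genes that STAT3 is known to raise, 2 were in the table, and they went opposite ways. ICAM1, an adhesion molecule for leukocytes, rose to 149 ± 49.8 FPKM in ALB cells, against 52.3 ± 3.65 FPKM in TGF-β1 cells (log2 fold change 1.51, adjusted p = 0.000376, edgeR). CCND1, cyclin D1, fell to 105 ± 9.33 FPKM in ALB cells, against 195 ± 8.65 FPKM in TGF-β1 cells (log2 fold change -0.89, adjusted p = 0.000533, edgeR).

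Of 23 genes of AP-1, NF-kB and C/EBP factors and their regulators, 2 were in the table, also in opposite directions. ATF3, a stress-induced factor that can pair with AP-1 proteins, had FPKM values of 16.5, 20.4 and 10.7 in A1, A2 and A3, against 3.51, 6.16 and 3.90 in T1, T2 and T3 (log2 fold change 1.87, adjusted p = 0.000355, edgeR). NFKBIZ encodes IκBζ, a nuclear regulator that NF-kB needs to induce IL6 in mouse macrophages. It had 26.2, 29.2 and 26.2 FPKM in A1, A2 and A3, against 50.3, 58.6 and 43.8 FPKM in T1, T2 and T3 (log2 fold change -0.91, adjusted p = 0.000908, edgeR). The calls of CCND1 and NFKBIZ were lost under TMM factors (adjusted p = 0.18 and 0.133, edgeR) and with the size factors of DESeq2 (adjusted p = 0.364 and 0.324). The median log2 fold changes, 0.31 over the 2 STAT3 targets, 0.48 over the 2 factors and -0.05 over the 4 cytokines, fall between -0.88 and 1.11, where the selection left no gene. Each list has as many higher as lower genes, so nothing is read from these medians. These lists were chosen with earlier results of these data known. A link of ATF3 or NFKBIZ to the change of any of the 4 cytokines was not tested.

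The genes whose log2 FPKM followed each cytokine most closely over the 6 libraries were taken from 545 genes with a symbol and a mean of at least 1 FPKM. With 2 groups and genes selected for a difference between them, high correlations are built in, and they are given as a description without a test. IL6 was followed most closely by ZC3HAV1 (Pearson r = 0.993), an antiviral zinc finger protein, IFIT1 (r = 0.987), an interferon-induced gene, and the channel gene TRPV2 (r = 0.980). CTF1 was followed by the Wnt receptor FZD2 (r = 0.996), PPME1 (r = 0.995), a methylesterase of protein phosphatase 2A, and the chemokine CXCL12 (r = 0.995). IL11 was followed by ATXN7 (r = 0.989), a subunit of the SAGA complex, FN3K (r = 0.978), a kinase that acts on glycated proteins, and PHYH (r = 0.974), a peroxisomal enzyme of phytanic acid breakdown. LIF was followed by the autophagy kinase ULK1 (r = 0.996), RFESD (r = 0.992) and OLR1 (r = 0.991), a receptor for oxidised LDL.

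The labels name a hepatocyte cell type beside the LX-2 line. Of 12 hepatocyte markers 0 were in the table and of 15 stellate markers 3 were (COL1A2, COL3A1 and TAGLN, all lower with ALB, with a summed level of at most 189 FPKM in ALB libraries and 237 to 404 FPKM in TGF-β1 libraries), so a table of called genes could not settle the cell type. Markers of other cells also moved with the groups. Of 8 epithelial markers 4 were in the table (KRT7, KRT8, KRT18 and SOX9), and their summed level was 122 to 159.9 FPKM in ALB libraries and 289.9 to 296 FPKM in TGF-β1 libraries. Of 8 endothelial markers 2 were (PECAM1 and TEK, 0.821 to 1.03 FPKM in ALB libraries and 1.64 to 2.12 FPKM in TGF-β1 libraries). Of 8 leukocyte markers ITGAM alone was (0.262 to 0.610 FPKM in ALB libraries and 0.142 to 0.199 FPKM in TGF-β1 libraries). The calls of TAGLN, KRT7, KRT8, PECAM1 and TEK were lost under TMM factors and under the size factors of DESeq2. The part of these markers in the change of the cytokines was not tested, and PTPRC and CD14, which define leukocytes, and EPCAM and CDH1, which define epithelia, have no value in the table.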

How the data were processed

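Libraries of oligo(dT)-selected RNA from LX-2 cells (6 in all) were run on the Illumina NovaSeq X Plus platform. The authors deposited, for 937 genes that they called with DESeq2, raw whole-number counts and FPKM values in each library. CASAVA 1.4 appears in the submitters' processing notes, with mm9 and mm10, which are mouse builds, although the gene symbols are human. The aligner, counter, strand setting and human build were not given in the sources used here. Columns were matched to samples by initial and number, with T taken as the TGF-β1 group, whose samples the labels call control. That match of T columns was inferred.

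Depth is not the sum over selected genes. Each library's depth was instead derived from count over FPKM in 565 genes (50 counts or more in all libraries), with the scale set by 41 genes of a single transcript in GENCODE 29, as 35800000 to 41600000 fragments per ALB library and 33800000 to 38100000 per TGF-β1 library. With these depths as library sizes, all 937 genes were fitted in edgeR by quasi-likelihood (R 4.3.3, edgeR 4.0.16), adjusted by Benjamini-Hochberg. Standard errors were taken as the size of the log2 fold change divided by the root of the F statistic. Log2 FPKM ratios of the 6 pairs were compared by exact permutation (scipy 1.17.1). Alternatives were TMM factors, DESeq2 1.42.0, limma 3.58.1 on log2(FPKM + 1) and log2(FPKM + 0.1), a minimum mean of 1 FPKM, the column number as a block and each library left out. Intervals on counts cover counting error only. Promoter windows are from RefSeq.

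The members and lists were chosen with earlier results of these data known. Named genes are the members, all table genes of the lists, and for each member the 3 genes with the highest correlation of log2(FPKM + 0.01). STEAP1B, LIF-AS1 and OSM were named for their positions, and COX6B2 for its position after its value was seen.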

Additional observations from a re-analysis of the deposited data

How the results depend on the processing

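Over 13 alternatives for each of the 4 genes, all 52 fold changes kept their direction and 49 stayed past the threshold. The exceptions were IL6 with TMM factors (log2 fold change -0.63) and IL6 and CTF1 with DESeq2's own size factors (-0.53 and -0.57), so that 1 and 0 of the members were called lower, in place of 2. The same scalings called 331 and 278 genes of the table lower, against 533. Both assume that most genes of a table of called genes are unchanged. The table's directions held as well, with 400 genes higher and 537 lower in the main fit and under both scalings. The selection on these same libraries fixed the directions, so 52 of 52 is no separate evidence. With a minimum mean of 1 FPKM 241 genes were called higher, against 398, since 618 of 937 genes were tested. Leaving out each library in turn gave log2 fold changes of -1.43 to -1.04 for IL6, -1.39 to -1.16 for CTF1, 0.90 to 1.29 for IL11 and 1.60 to 2.03 for LIF, all past the threshold. In these fits 388 to 397 genes of the table were called higher and 512 to 518 lower. On log2(FPKM + 1) the differences of pairs with CTF1, whose level is near 1 FPKM, were 1.86 for IL11/CTF1, 2.46 for LIF/CTF1 and 0.47 for CTF1/IL6. No pairing by column number was seen: deviations of same-numbered libraries correlated at 0.06, -0.01 and -0.09. Of the 6 libraries 1 was closest to its own number. The genes were selected for a difference between groups and the libraries are few, so this check cannot exclude pairing. With the replicate block, log2 fold changes were -1.23 for IL6, -1.27 for CTF1, 1.13 for IL11 and 1.77 for LIF, and 393 genes were called higher and 532 lower. Depth limits CTF1 alone of the members, at 49 to 139 counts.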

Other observations

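Matched by symbol, COX6B2 was the only other gene of the table within 50000 bases of any of the 4 cytokine genes in GENCODE 29. Genes of the table without a symbol were not placed. COX6B2 encodes a testis isoform of a cytochrome c oxidase subunit and lies 9575 bases from IL11, on the same strand. Its mean level was 2.03 FPKM in ALB cells and 0.445 FPKM in TGF-β1 cells (n = 3 each). By edgeR its adjusted p was 0.000512, at a log2 fold change of 1.91 with a standard error of 0.32. COX6B2 was singled out after its value was seen, and no relation to IL11 was tested.

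The order of the ALB libraries differed between members. IL11 was highest in A1 and lowest in A3, and so was LIF, whereas IL6 and CTF1 were highest in A3 and lowest in A2. IL6 was nearly level in A1 and A2, at 51.3 and 50.9 FPKM. The coefficient of variation of CTF1 in the ALB libraries, 6.12%, was below its counting error of 12.5% to 14.3%. In the TGF-β1 libraries IL6 and IL11 were both highest in T2, where CTF1 and LIF were lowest. With 3 libraries a group these orders were not tested.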
